A study of Homo sapiens with 6 samples.

Results

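The CXXC5 knockdown in K562 cells was examined gene by gene as the log2 value on the K562 shRINF array minus that on the K562 shcontrol array. Features named by 1 gene symbol in the platform annotation were kept at log2 5 or more on either array, which left 15291 of the 23781 such features, among 67528 features in all. They stood for 14469 of 22465 genes, a gene with several features being read from the feature with the highest mean over both arrays. K562 is an established human leukaemia line of erythroid and megakaryocytic character that carries the BCR-ABL1 fusion. The K562 shRINF cells carried a lentiviral vector with an shRNA against CXXC5, and the K562 shcontrol cells the same kind of vector with a control sequence. Both were proliferating cultures in medium with fetal calf serum. UT7-5.3 cells, which were kept in GM-CSF, and MV4-11 cells had the same pair of vectors, so the series held 6 arrays, 1 for each line and vector. The labels give 1 shRNA name, no clone, and no time after transduction. With 1 array a side, no difference has a replicate check, and differences are described by size, rank and count, with no test.

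CXXC5, also called RINF for retinoid-inducible nuclear factor, is a zinc finger protein whose CXXC domain binds DNA containing unmethylated CpG. It binds Dishevelled and dampens Wnt signalling, and it takes part in TGF-beta, BMP and retinoid responses. In blood cells it has been linked to myeloid and erythroid maturation.

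The targeted gene was lower with the shRNA. CXXC5 was at 7.95 on the K562 shRINF array, against 8.40 on the K562 shcontrol array, a log2 difference of -0.45, so the signal was 73.2% of control. CXXC5 ranked 14 from the lowest of the 14469 genes, and 3 protein-coding genes were lower: KRTAP10-5, CPOX and KRTAP5-8. In UT7-5.3 cells CXXC5 was at 7.76 with shRINF and 8.42 with shcontrol, and in MV4-11 cells at 7.95 and 8.58. The differences there were -0.66 and -0.63, so K562 had the smallest of the 3. Array signal is compressed at low and high levels, and CXXC5 protein was not analysed here, so the depth of the knockdown is known only as this signal. In RNA of a whole culture, fewer cells expressing a gene and less of its RNA per cell cannot be told apart.

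The K562 arrays differed little from each other. Their values correlated at 0.997 over all features, and the median of all features was 4.66 on the shRINF array and 4.67 on the shcontrol array. Over the kept genes the difference had a median of 0.01 and an SD over genes of 0.10, and 76.3% of genes lay within 0.1 of 0. The SD over genes was 0.25 in UT7-5.3 and 0.16 in MV4-11. No K562 gene reached a log2 difference of 1 in either direction, and the range was -0.80 to 0.69.

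A difference of 0.3 log2, which is 1.23-fold, was used to count genes. In K562, 139 genes (0.961%) were higher with shRINF by this much and 103 (0.712%) were lower. By the same count over the same genes, UT7-5.3 had 13.1% higher and 9.66% lower, and MV4-11 had 3.71% higher and 2.63% lower. Protein-coding genes made up 76 of the K562 genes that were higher and 33 of those that were lower. At a difference of 0.5 log2, 9 genes were higher and 11 lower. The difference was above 0 for 52.3% of K562 genes and below 0 for 43.0%.

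The spread followed the level of the gene. Among the 1447 genes with the lowest mean levels the SD of the difference was 0.13, with 23 genes higher and 27 lower by 0.3 or more. Among the 1447 with the highest it was 0.08, with 9 higher and 0 lower. The median difference was -0.03 among the lowest and 0.03 among the highest. The part of this trend in the groups below was not tested apart from an alternative that removed it. Features just inside the filter, whose higher value was 5.00 to 5.04, had differences of -0.80 to 0.42 with a median of -0.03 over 177 features. The 182 features just outside it, at 4.95 to 4.99, had -0.45 to 0.59 with a median of -0.02.

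**Figure D1:**
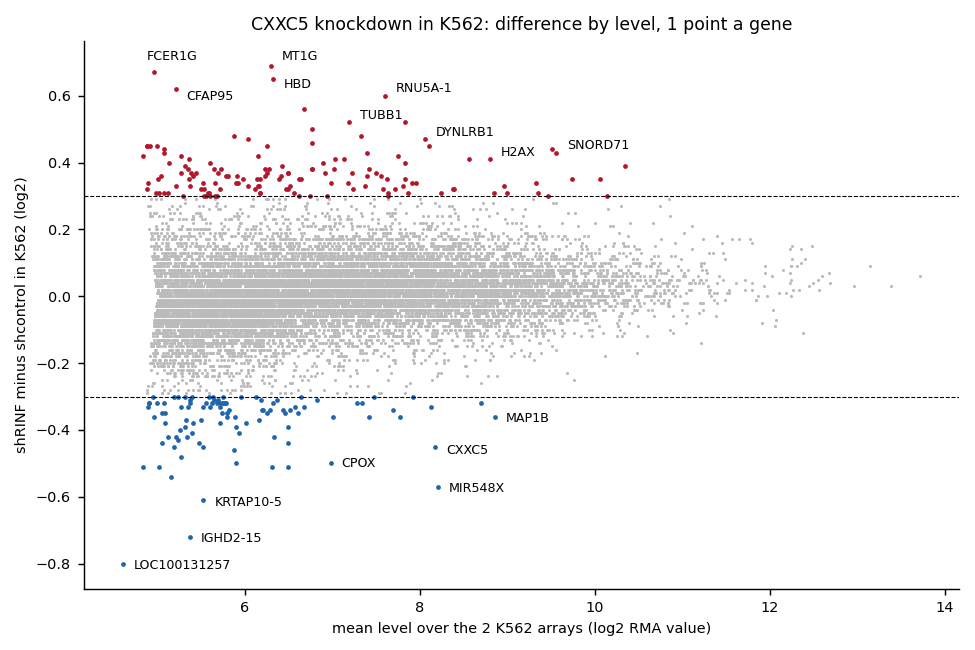
Each point is a gene: its mean level over both K562 arrays (log2 RMA value, horizontal) against the K562 shRINF minus K562 shcontrol difference (log2, vertical). Dashed lines mark 0.3 and -0.3, with the 139 genes above in red and the 103 below in blue; CXXC5 lies at -0.45.

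K562 cells were checked against markers of their lineage. All 8 erythroid markers with a feature of their own were at 6.99 or more on both arrays, with medians of 8.95 with shRINF and 8.86 with shcontrol. They included the embryonic globin HBZ (12.34 with shRINF, 12.32 with shcontrol), the transferrin receptor TFRC (11.06 and 11.00) and the erythroid transcription factor GATA1 (10.45 and 10.39). HBG1, HBG2, HBE1, HBA1 and HBA2 were not analysed, having no feature with that symbol alone. Markers of other blood cells and of fibroblasts and epithelia had lower medians, but not all were near the floor. The B-cell marker MS4A1 was at 3.16 on both arrays and DCN of fibroblasts at 2.86 with shRINF and 3.01 with shcontrol, whereas lysozyme, LYZ, was at 9.40 and 9.36. Without detection calls a value near 5 cannot be told from background.

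Among globin genes, delta-globin stood out. HBD was at 6.64 on the shRINF array, against 5.99 on the shcontrol array, a difference of 0.65 that ranked 3 from the highest. AHSP, the chaperone of free alpha-globin, was at 5.75 with shRINF and 5.45 with shcontrol, a difference of 0.30. The other kept members of the list moved less. HBZ differed by 0.02, the theta-globin HBQ1 by 0.08 (6.85 with shRINF, 6.77 with shcontrol) and the mu-globin HBM by -0.14 (6.19 and 6.33). HBB, beta-globin, was below the filter at 4.91 with shRINF and 4.67 with shcontrol. HBD and HBB are close copies, and whether their probes share signal was not tested. In UT7-5.3, where HBD was at 8.46 with shRINF and 7.14 with shcontrol, the difference was 1.32, and in MV4-11 it was -0.05 at levels of 3.86 and 3.91.

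In the haem pathway 1 gene stood apart. CPOX, coproporphyrinogen oxidase, was at 6.73 with shRINF and 7.23 with shcontrol, a difference of -0.50, and it was the only member past 0.3. It was also lower in UT7-5.3 (-0.52; 6.71 with shRINF, 7.23 with shcontrol), and in MV4-11 it differed by -0.05. The last enzyme of the pathway, ferrochelatase FECH, was at 9.25 with shRINF and 9.07 with shcontrol, a difference of 0.18. The erythroid form of the first enzyme, ALAS2, was at 9.10 and 8.93, a difference of 0.17, and its mitochondrial iron importer SLC25A37 was at 8.89 and 8.76. Of 13 haem genes kept, 10 were above 0 and 3 below, with a median of 0.07.

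Iron and membrane genes of red cells differed by less than 0.2. Of 12 iron genes 8 were above 0 and 4 below, with a median of 0.03, and the range was -0.18 (HMOX1, haem oxygenase 1) to 0.14 (NCOA4, the ferritin autophagy receptor). Of 18 red cell membrane genes 13 were above 0 and 5 below, with a median of 0.07. Among these, carbonic anhydrase CA1 was at 5.66 with shRINF and 5.50 with shcontrol, and the Kell antigen KEL at 8.77 and 8.62. Of 16 erythroid and megakaryocytic transcription factors 10 were above 0 and 5 below, with a median of 0.04 and differences of -0.14 to 0.10. These counts stand beside 52.3% of all genes above 0, and the median over all genes was 0.01.

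**Figure D2:**
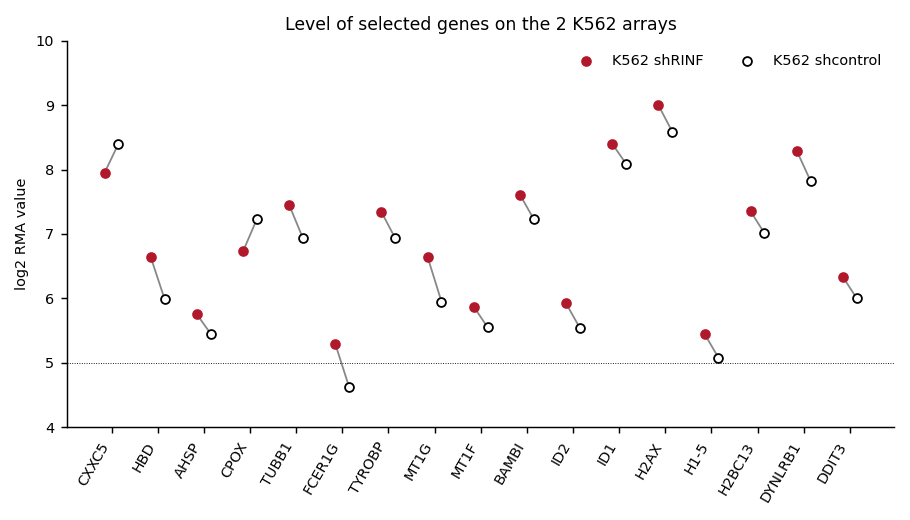
Log2 RMA value of 17 genes named in the text on the K562 shRINF array (filled, left of each pair) and the K562 shcontrol array (open, right), with the filter at 5 as a dotted line. CXXC5 and CPOX are lower on the shRINF array and the other genes drawn are higher; genes were drawn because the text describes them, and levels are not comparable between genes.

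A few genes of platelets and of myeloid signalling were higher, while most of their lists were not. TUBB1, the platelet form of beta-tubulin, was at 7.45 with shRINF and 6.93 with shcontrol, a difference of 0.52. The platelet collagen receptor GP6 was next at 0.18 (8.16 with shRINF, 7.98 with shcontrol), and 6 of 12 platelet genes were above 0 and 6 below. ITGA2B, the platelet integrin subunit, differed by 0.04, and the chemokine PF4 by -0.12. TUBB1 was also higher in UT7-5.3 (0.54), and in MV4-11 the difference was -0.38 at levels of 4.72 with shRINF and 5.10 with shcontrol.

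FCER1G, the signalling chain shared by several Fc receptors, was at 5.29 with shRINF and 4.62 with shcontrol. Its difference of 0.67 ranked 2 from the highest, but its control value lay below the filter. TYROBP, an adaptor with the same kind of activation motif, was at 7.34 with shRINF and 6.93 with shcontrol, a difference of 0.41. The adaptor FYB1, which links immune receptors to the actin skeleton, was at 6.48 and 6.03, a difference of 0.45. In UT7-5.3 they differed by 0.09 for FCER1G, 0.19 for TYROBP and 0.30 for FYB1. In MV4-11 the differences were -0.48 for FCER1G, -0.55 for TYROBP and -0.47 for FYB1. The granulocytic and monocytic list as a whole did not follow them. Of its 25 kept genes 11 were above 0 and 14 below, with a median of -0.03; CD14 was under the filter at 4.52 with shRINF and 4.50 with shcontrol, MPO differed by -0.14 and SPI1 by -0.03. The lymphoid list had 5 of 13 genes above 0 and 8 below, and the fibroblast and epithelial list 2 of 8 above and 6 below, with medians of -0.05 and -0.03.

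Metallothioneins, small proteins that bind zinc and copper, had the highest median of the 38 lists, 0.18. MT1G was at 6.64 with shRINF and 5.95 with shcontrol, a difference of 0.69 that was the highest of all genes. MT1F was at 5.87 with shRINF and 5.55 with shcontrol, a difference of 0.32. MT2A was at 8.12 and 7.90 (0.22), MT1H at 6.17 and 5.97 (0.20) and MT1E at 6.51 and 6.32 (0.19). MT1M and MT1X differed by 0.02 and -0.01. The metal-sensing transcription factor MTF1 was at 7.87 on both arrays, and the zinc exporter SLC30A1 was at 7.09 with shRINF and 7.10 with shcontrol. In all, 7 of 10 members were above 0 and 2 below. The copper transporter ATP7A, outside this list, was at 7.24 with shRINF and 7.60 with shcontrol, a difference of -0.36. The metallothionein genes are near-identical copies, so the split of signal among them is uncertain. The list's median was -0.10 in UT7-5.3 and 0.84 in MV4-11, where MT2A differed by 1.91.

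The bases before the transcription start of metallothionein genes are shown because these genes share a known control element, the metal response element, to which MTF1 binds. The letters searched were TGCACNC and TGCGCNC on both strands, and matches are in capitals. Sequences are from RefSeq (GRCh38.p14), 250 bases before the start, read 5′ to 3′ on the gene's strand.
MT2A, chr16:56608334-56608583, plus strand: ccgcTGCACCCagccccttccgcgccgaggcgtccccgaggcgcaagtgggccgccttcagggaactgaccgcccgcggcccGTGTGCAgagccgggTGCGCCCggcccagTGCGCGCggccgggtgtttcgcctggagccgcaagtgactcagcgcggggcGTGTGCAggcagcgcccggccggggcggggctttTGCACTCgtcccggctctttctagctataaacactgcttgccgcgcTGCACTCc
MT1H, chr16:56669564-56669813, plus strand: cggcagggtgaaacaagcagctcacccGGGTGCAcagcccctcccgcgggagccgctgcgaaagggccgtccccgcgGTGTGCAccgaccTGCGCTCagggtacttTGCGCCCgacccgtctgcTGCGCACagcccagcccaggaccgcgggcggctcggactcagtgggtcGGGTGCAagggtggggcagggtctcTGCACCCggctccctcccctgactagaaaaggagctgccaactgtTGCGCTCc
The MT2A window held 7 matches and the MT1H window 8, and that of MT1X, not shown, held 4. Among all 35116 windows 24.8% held at least 1, 0.37% at least 4 and 0.0313% at least 7. A match is only a match of letters, and MT1X, with 4, differed by -0.01.

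Among 16 replication-dependent histone genes, which supply histones in S phase, 12 were above 0 and 3 below, with a median of 0.09, which was 0.05 with the trend of difference on level removed. The linker histone H1-5 was at 5.45 with shRINF and 5.08 with shcontrol, a difference of 0.37. H2BC13 was at 7.35 and 7.01 (0.34), H2BC15 at 7.30 and 7.06 (0.24) and H2BC21 at 9.32 and 9.11 (0.21). H1-4 was lower by 0.09 at levels of 12.01 with shRINF and 12.10 with shcontrol. H2AX, the variant phosphorylated at DNA breaks, was at 9.0 with shRINF and 8.59 with shcontrol, a difference of 0.41. It was higher in the other lines too, by 0.46 in UT7-5.3 and 0.38 in MV4-11. The replication-dependent list had medians of 0.34 in UT7-5.3 and 0.29 in MV4-11. Several of these genes are near-identical copies, and H1-3 and H2BC3 were below the filter with differences of -0.41 and 0.33.

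The windows of H2AX and H2BC13 are shown because histone promoters are known for repeated CCAAT boxes. Matches to CCAAT on both strands are in capitals, from the same RefSeq table.
H2AX, chr11:119095466-119095715, minus strand: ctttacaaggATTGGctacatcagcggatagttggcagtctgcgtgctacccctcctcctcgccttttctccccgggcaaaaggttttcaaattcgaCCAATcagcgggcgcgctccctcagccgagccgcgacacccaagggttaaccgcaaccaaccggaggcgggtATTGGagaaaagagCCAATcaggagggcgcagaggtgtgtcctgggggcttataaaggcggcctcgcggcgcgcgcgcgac
H2BC13, chr6:27807930-27808179, minus strand: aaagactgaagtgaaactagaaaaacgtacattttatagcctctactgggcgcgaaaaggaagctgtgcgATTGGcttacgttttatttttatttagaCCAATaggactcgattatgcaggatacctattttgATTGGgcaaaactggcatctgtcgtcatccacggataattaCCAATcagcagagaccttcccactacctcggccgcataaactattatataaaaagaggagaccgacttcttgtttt
Each window held 4 matches, which 0.874% of all windows reach, and that of H2AX also held 1 match to the metal response element. Of the 16 replication-dependent histone genes 15 had a window, all 15 held at least 1 CCAAT and 13 at least 2, against 32.0% and 9.53% of all windows. This is a property of the list and was not set against the differences. A comparison of CpG counts in the windows of genes past 0.3 is void and not reported, because only 78.9% of the higher and 63.6% of the lower protein-coding genes had a window.

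Genes of DNA replication moved together by small amounts. Of 37 kept, 33 were above 0 and 2 below, with a median of 0.07, and none reached 0.3. POLA2, the B subunit of DNA polymerase alpha, was at 8.42 with shRINF and 8.22 with shcontrol, and the helicase subunit MCM5 at 9.32 and 9.13. Thymidine kinase TK1 was at 9.29 and 9.13. The S-phase clamp PCNA (9.56 with shRINF, 9.53 with shcontrol) and the ribonucleotide reductase subunit RRM2 (9.46 and 9.45) hardly differed. Of 36 mitosis genes 25 were above 0 and 9 below, with a median of 0.04, the highest being the phosphatase CDC25C at 0.29 (7.62 with shRINF, 7.33 with shcontrol). Cyclins, CDKs and CDK inhibitors split evenly, with 8 above 0 and 8 below of 19. Both replication and mitosis genes lie in the upper part of the level range, where all genes had a median of 0.03. With the trend of difference on level removed, the median of the replication list was 0.05 and that of the mitosis list 0.00.

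The pathways in which CXXC5 is known to act moved little as lists. Of 22 Wnt genes 8 were above 0 and 14 below, with a median of -0.04. The Dishevelled genes DVL1, DVL2 and DVL3, whose proteins bind CXXC5, differed by 0.05, 0.04 and 0.03. The receptor FZD4 was at 6.63 with shRINF and 6.41 with shcontrol, a difference of 0.22 that was the largest of the list, and the Wnt target LEF1 differed by -0.03. AXIN2, a common readout of the pathway, was below the filter at 4.86 with shRINF and 4.93 with shcontrol. TMEM88, a membrane protein that binds Dishevelled, was at 5.53 with shRINF and 5.91 with shcontrol, a difference of -0.38. Of 10 retinoid genes 4 were above 0 and 5 below, with differences of -0.10 to 0.13.

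In the TGF-beta and BMP list 13 of 25 genes were above 0 and 12 below, with a median of 0.01. By 0.3 or more, 3 of the 25 were higher and 0 lower, beside 0.961% and 0.712% of all genes. The list was chosen with earlier results of these data known. BAMBI, a decoy receptor, was at 7.61 with shRINF and 7.23 with shcontrol, a difference of 0.38. The ID genes, BMP targets that block basic helix-loop-helix factors, were higher for the 3 kept. ID2 was at 5.92 with shRINF and 5.54 with shcontrol (0.38), ID1 at 8.40 and 8.09 (0.31) and ID3 at 5.72 and 5.46 (0.26). The shared mediator SMAD4 was at 8.10 and 7.83, a difference of 0.27. At the other end, the co-receptor ENG was at 6.40 with shRINF and 6.66 with shcontrol, a difference of -0.26, and the repressor SKIL at 6.91 and 7.12, a difference of -0.21. The inhibitory SMADs differed by -0.14 for SMAD7 and 0.02 for SMAD6. In the other lines BAMBI differed by 0.06 in UT7-5.3 and 0.10 in MV4-11, and ID1 by -0.03 and 0.47.

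Other CXXC zinc finger and DNA methylation genes stayed within 0.25 of 0. Of the 14 genes of this list, CXXC5 included, 8 were above 0 and 6 below, with a median of 0.02. The methylcytosine dioxygenase TET1 was at 8.76 with shRINF and 9.0 with shcontrol, a difference of -0.24, and the histone methyltransferase KMT2A at 9.21 and 9.40, a difference of -0.19. The histone demethylase KDM2A was at 7.90 and 7.77, a difference of 0.13. CXXC4, the closest relative of CXXC5, was under the filter at 2.78 with shRINF and 2.74 with shcontrol. TET1 differed by 0.31 in UT7-5.3 and 0.54 in MV4-11.

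**Figure D3:**
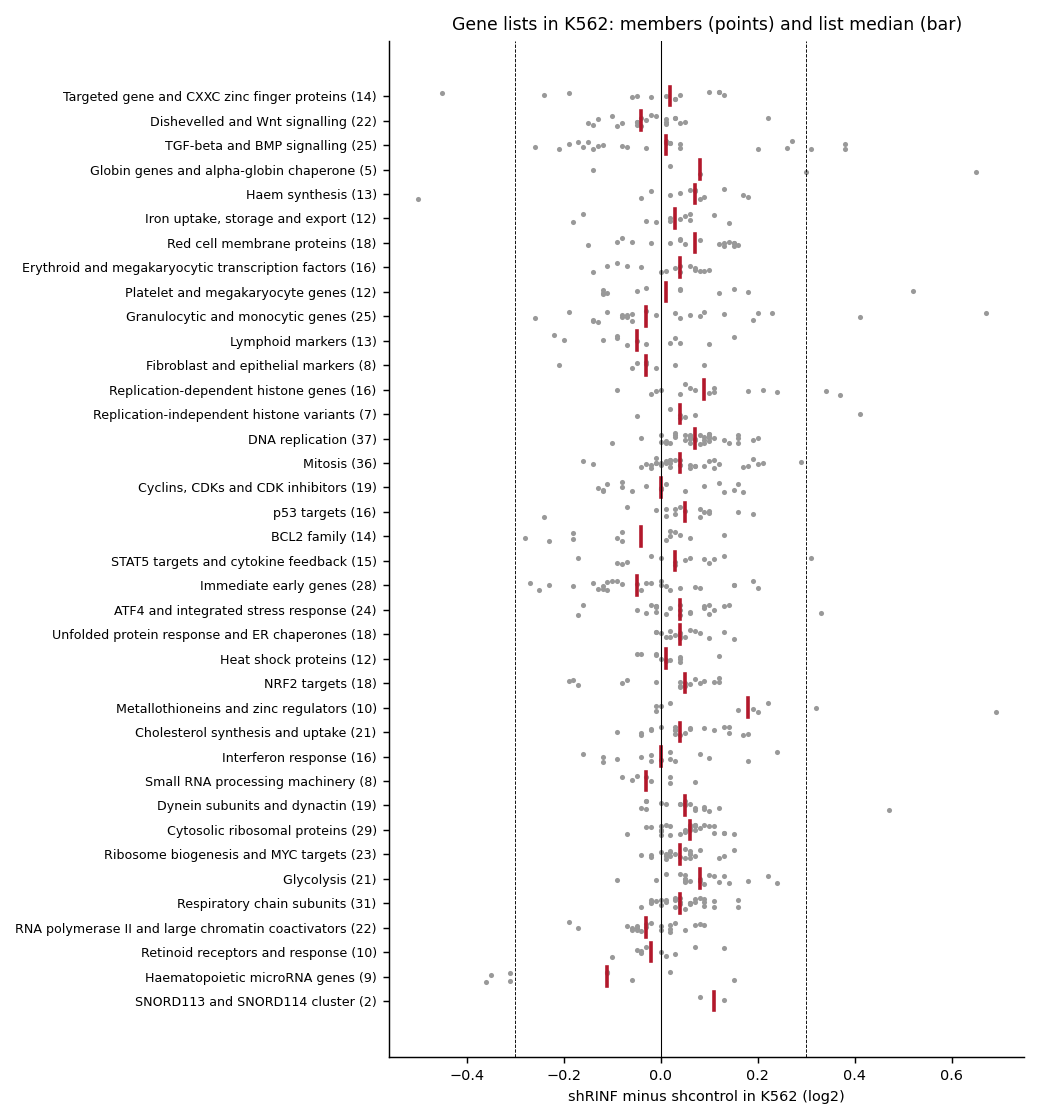
K562 shRINF minus K562 shcontrol (log2) for the kept members of 38 gene lists, 1 point a gene and a bar at each list's median, with the number kept in parentheses and dashed lines at 0.3 and -0.3. List medians run from -0.11 (haematopoietic microRNA genes) to 0.18 (metallothioneins and zinc regulators), and most points lie within 0.2 of 0.

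Over all 38 lists 26 medians were above 0, 10 were below and 2 were at 0. Of the 652 distinct genes kept in them 15 (2.3%) were higher and 6 (0.92%) lower by 0.3 or more, beside 0.961% and 0.712% of all genes. The lists and their members were chosen with earlier results of these data known, so these shares carry no independent weight. Glycolysis had 19 of 21 genes above 0 and 2 below, with a median of 0.08. The brain form of aldolase ALDOC was at 8.55 with shRINF and 8.31 with shcontrol (0.24), and the glucose transporter SLC2A3 at 9.73 and 9.51 (0.22). Cytosolic ribosomal proteins had 22 of 29 above 0 and a median of 0.06, respiratory chain subunits 24 of 31 and 0.04, and ribosome biogenesis and MYC targets 19 of 23 and 0.04. All are lists of high level, for which the trend above applies; with it removed their medians were 0.02, 0.02 and 0.01, and that of glycolysis 0.05. Immediate early genes went the other way, with 9 of 28 above 0, 17 below and a median of -0.05. The phosphatase DUSP2 was at 6.17 with shRINF and 6.44 with shcontrol (-0.27) and the flow-responsive factor KLF2 at 6.07 and 6.32 (-0.25). In the BCL2 family the pro-apoptotic BIK was at 5.75 and 6.03 (-0.28), and 7 of 14 genes were below 0.

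Stress and response lists had medians between 0.00 and 0.05. Of 24 genes of ATF4 and the integrated stress response 15 were above 0 and 9 below, with a median of 0.04, and DDIT3, the stress factor CHOP, was at 6.33 with shRINF and 6.0 with shcontrol, a difference of 0.33. The unfolded protein response had 15 of 18 above 0 and a median of 0.04, and heat shock proteins 7 of 12 and 0.01. Of 16 p53 targets 13 were above 0 and 3 below, with a median of 0.05. MDM2, the ligase that degrades p53, was at 9.04 with shRINF and 8.85 with shcontrol (0.19), while the RNA-binding target ZMAT3 was at 6.55 and 6.79 (-0.24). NRF2 targets had 12 of 18 above 0 and a median of 0.05, although the quinone reductase NQO1 was at 8.23 and 8.42 (-0.19). Cholesterol genes had 15 of 21 above 0 and a median of 0.04, and STAT5 targets 9 of 15 and 0.03. Interferon response genes had 7 of 16 above 0 and 7 below, and the antiviral membrane protein BST2 was at 8.31 with shRINF and 8.07 with shcontrol (0.24). Of all genes 52.3% were above 0. Apart from interferon response, the stress and response lists had median levels of 7.26 to 9.24, where all genes had a median of 0.03. With the trend of difference on level removed, the median was 0.04 for p53 targets and 0.03 for STAT5 targets. It was 0.02 for the unfolded protein response and 0.01 for the ATF4, NRF2 and cholesterol lists. It was 0.00 for interferon response genes and -0.02 for heat shock proteins. RNA polymerase II and coactivator genes had 8 of 22 above 0 and 12 below, and the small RNA processing machinery 3 of 8 above and 5 below, both with a median of -0.03.

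DYNLRB1, a light chain of the dynein motor, was higher in all 3 lines. It was at 8.29 with shRINF and 7.82 with shcontrol in K562, a difference of 0.47, and the differences were 0.87 in UT7-5.3 and 0.88 in MV4-11. The other 18 dynein and dynactin genes kept did not share this, ranging from -0.04 to 0.12 in K562. Its smallest difference was in K562, where the SD over all kept genes was also smallest (0.10, against 0.25 in UT7-5.3 and 0.16 in MV4-11).

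The remaining protein-coding genes at the upper end had diverse roles. CFAP95, CLEC2B, USP51 and C4B passed the filter only through the shRINF array, so their control values cannot be told from background and their differences are uncertain. CFAP95, a protein of cilia and flagella, was at 5.52 with shRINF and 4.90 with shcontrol (0.62). EFCAB10, an EF-hand protein, was at 7.02 and 6.52 (0.50) and HEPACAM2, of the immunoglobulin superfamily, at 7.0 and 6.54 (0.46). CFAP161 and CFAP210, looked at after CFAP95 was seen, differed by 0.40 and 0.42, while the 17 CFAP genes kept had a median of 0.03. CFAP210 also passed the filter only through the shRINF array. NUDT19, a nudix hydrolase, was at 8.33 with shRINF and 7.88 with shcontrol, the lectin-like CLEC2B at 5.22 and 4.77, and the deubiquitinase USP51 at 5.14 and 4.69, all with 0.45. The imprinted small GTPase DIRAS3 was at 7.61 and 7.18 (0.43). Complement factor C4B, at 5.10 with shRINF and 4.65 with shcontrol (0.45), was read from an alternate haplotype feature and has a near-identical neighbour copy. CD24, at 6.12 and 5.64 (0.48), was read from a feature whose identifier gives another chromosome than RefSeq does for the gene, so its name is uncertain.

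At the lower end, 3 of the 15 lowest protein-coding genes were keratin-associated proteins, which build hair. KRTAP10-5 was at 5.22 with shRINF and 5.83 with shcontrol (-0.61), KRTAP5-8 at 5.65 and 6.15 (-0.50) and KRTAP5-2 at 5.14 and 5.51 (-0.37). The family was gathered after these values were seen: of 38 members kept 31 were below 0 and 5 above, with a median of -0.11, beside 43.0% of all genes below 0. These 38 include the antisense gene KRTAP5-AS1 and the pseudogene KRTAP4-16P, and many are close copies. The family's median was -0.25 in UT7-5.3 and 0.02 in MV4-11, beside -0.06 and 0.00 for all genes. All members lay at 7.17 or less on both K562 arrays. All genes had medians of -0.03 to -0.01 at mean levels of 4.61 to 6.42, and of 0.01 to 0.03 at 6.42 to 7.28. The part of this trend in the family's median was not tested. EID3, an inhibitor of EP300, was at 6.27 with shRINF and 6.71 with shcontrol (-0.44). MAP1B, a microtubule-associated protein of neurons, was at 8.68 and 9.04, and MSANTD4, of the Myb-SANT type, at 7.59 and 7.95, both with -0.36. The homeobox gene HOXC13 was at 5.82 and 6.20, and the kinase gene SBK1 at 4.90 and 5.28, both with -0.38. PCARE, of photoreceptor cilia, was at 5.00 and 5.42 (-0.42), CDRT15L2 at 4.91 and 5.26 and the secreted IGFBP7 at 5.62 and 5.97, the last pair with -0.35. SBK1 and CDRT15L2 passed the filter only through the shcontrol array. Their shRINF values cannot be told from background, so their differences are uncertain.

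Small RNA genes differed by type. The array measures features of their genes after total RNA labelling, so precursor and mature forms cannot be told apart, and the recovery of small RNA in each extract was not tested. Spliceosomal and other snRNA genes had a median of 0.20, with 18 of 21 above 0 and 2 below. Small nucleolar RNA genes, which guide RNA modification, had 0.14, with 112 of 132 (84.8%) above 0. The Cajal body RNAs had 0.15, with 12 of 19 (63.2%) above 0. Of all genes 52.3% were above 0. MicroRNA genes had a median of -0.04, with 215 of 370 (58.1%) below 0, beside 43.0% of all genes. By 0.3 or more, 5 of them (1.35%) were higher and 28 (7.57%) lower, beside 0.961% and 0.712% of all genes. The gene types were compared after their values had been seen. The snRNA and snoRNA medians were 0.04 and 0.06 in UT7-5.3 and -0.05 and -0.01 in MV4-11. The Cajal body RNA median was 0.22 in UT7-5.3 and 0.03 in MV4-11.

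RNU5A-1, an RNA of the U5 particle of the spliceosome, was at 7.90 with shRINF and 7.30 with shcontrol, a difference of 0.60. All 7 U5 genes and copies kept were higher, by 0.24 to 0.60, with a median of 0.39. Their sequences are close copies, so they are not separate measurements. RNU5E-1 was at 10.54 with shRINF and 10.15 with shcontrol. Among snoRNA genes SNORD12B was at 8.09 with shRINF and 7.57 with shcontrol (0.52) and SNORA38B at 7.57 and 7.09 (0.48). SCARNA4 was at 6.27 and 5.80 (0.47), while SCARNA27 was lower, at 6.51 and 6.84. The U5 median was 0.20 in UT7-5.3 and -0.14 in MV4-11.

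**Figure D4:**
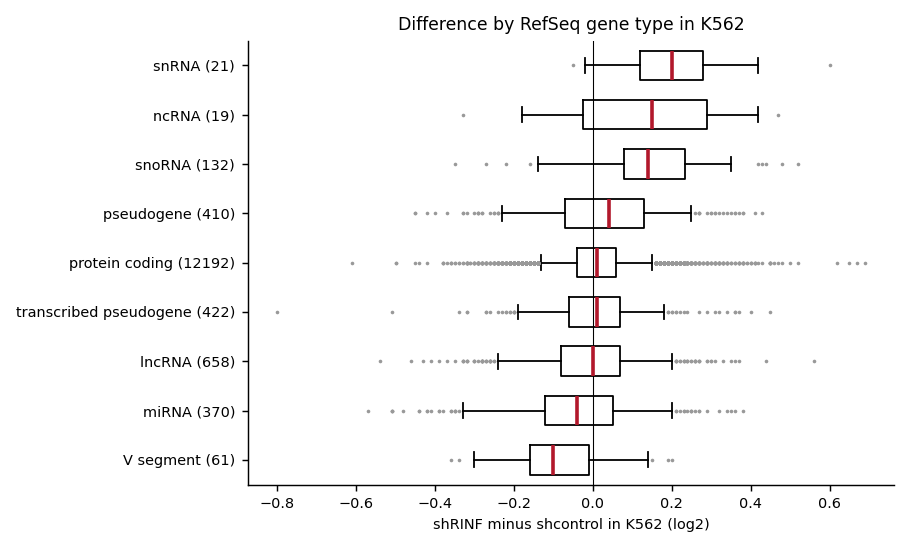
Distribution of the K562 shRINF minus K562 shcontrol difference (log2) by RefSeq gene type, with the number of genes in parentheses, red bars at medians, boxes from the lower to the upper quartile, whiskers from percentile 5 to 95 and points beyond. The medians of snRNA (0.20), ncRNA (0.15, here the Cajal body RNAs) and snoRNA (0.14) lie above the protein-coding median of 0.01, and those of miRNA (-0.04) and V segments (-0.10) below it.

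The microRNA genes at the lower end were MIR548X, MIR26B, MIR4692 and MIR4659A. MIR26B was at 4.76 with shRINF and 5.27 with shcontrol, and MIR4692 at 6.24 and 6.75, both with -0.51. MIR4659A had the same difference at 6.05 and 6.56. MIR26B passed the filter only through the shcontrol array, so its difference is uncertain. MIR548X was at 7.92 with shRINF and 8.49 with shcontrol (-0.57), but its feature lies on another chromosome than RefSeq gives for this symbol, and the family has many near-identical copies. Mature sequences of MIR26B and MIR4692 (RefSeq, GRCh38.p14) are given to show which RNAs are meant, with the seed, bases 2 to 8, in capitals. They share no seed.
hsa-miR-26b-5p, chr2:218402657-218402677, plus strand: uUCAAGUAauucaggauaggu
hsa-miR-26b-3p, chr2:218402692-218402712, plus strand: cCUGUUCUccauuacuuggcu
hsa-miR-4692, chr11:72783566-72783587, plus strand: uCAGGCAGuguggguaucagau
In UT7-5.3 and MV4-11 the difference was -0.27 and 0.36 for MIR26B and -0.24 and -0.11 for MIR4692. MIR4288, MIR551B and MIR3650 were the only microRNA genes lower by 0.3 or more in all 3 lines, with -0.36, -0.35 and -0.31 in K562. They were put in their list with earlier results of these data known, so the list's median of -0.11 carries no independent direction.

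Among other transcripts, the pseudogene LOC100131257 had the lowest difference of all, -0.80, at 4.21 with shRINF and 5.01 with shcontrol, next to the filter. The immunoglobulin segment IGHD2-15 was at 5.01 and 5.73 (-0.72), the transcript AGPAT4-IT1 at 4.89 and 5.43 (-0.54) and the pseudogene PPY2P at 4.58 and 5.09 (-0.51). LOC100131257, AGPAT4-IT1 and PPY2P passed the filter only through the shcontrol array, so their differences are uncertain. The non-coding LOC100289361 was at 6.96 with shRINF and 6.40 with shcontrol (0.56). Immunoglobulin and T-cell receptor V segments had 46 of 61 below 0, beside 43.0% of all genes, with a median of -0.10 at a median level of 5.52. All genes with mean levels of 5.34 to 5.69 had a median of -0.03. The V segment median was -0.18 in UT7-5.3 and 0.01 in MV4-11.

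The K562 differences were then set beside those of the other lines. Of the 139 genes higher in K562, 87 were above 0 in UT7-5.3 (62.6%, Wilson 95% interval 54.3 to 70.2, counting error only), where 41.5% of all genes were. In MV4-11 64 of them were above 0 (46.0%, 38 to 54.3), against 49.1% of all genes. Of the 103 lower genes, 69 were below 0 in UT7-5.3 (67.0%, 57.4 to 75.3), against 57.1% of all genes, and 56 in MV4-11 (54.4%, 44.8 to 63.7), against 47.2%. Genes that share sequence or control are not independent, so these intervals are too narrow. Over the 14469 genes the K562 difference correlated at 0.15 with that of UT7-5.3 and at 0.03 with that of MV4-11, a description across genes on arrays normalised together.

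Of the 139 genes higher in K562, 5 were past 0.3 the same way in all 3 lines: DYNLRB1, H2AX, IRAG2, DNAJC3-DT and RNA5SP141. Of the 103 lower genes 4 were: CXXC5, MIR3650, MIR4288 and MIR551B. Over all genes 13.1% were higher by 0.3 or more in UT7-5.3 and 3.71% in MV4-11, and 9.66% and 2.63% were lower. IRAG2, a membrane protein of the endoplasmic reticulum in lymphoid cells, was at 5.84 with shRINF and 5.46 with shcontrol in K562. DNAJC3-DT, a non-coding transcript beside the chaperone gene DNAJC3, was at 5.30 and 4.86. It passed the filter only through the shRINF array, so its difference is uncertain. No test of a difference between lines was possible with 1 array for each line and vector.

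**Figure D5:**
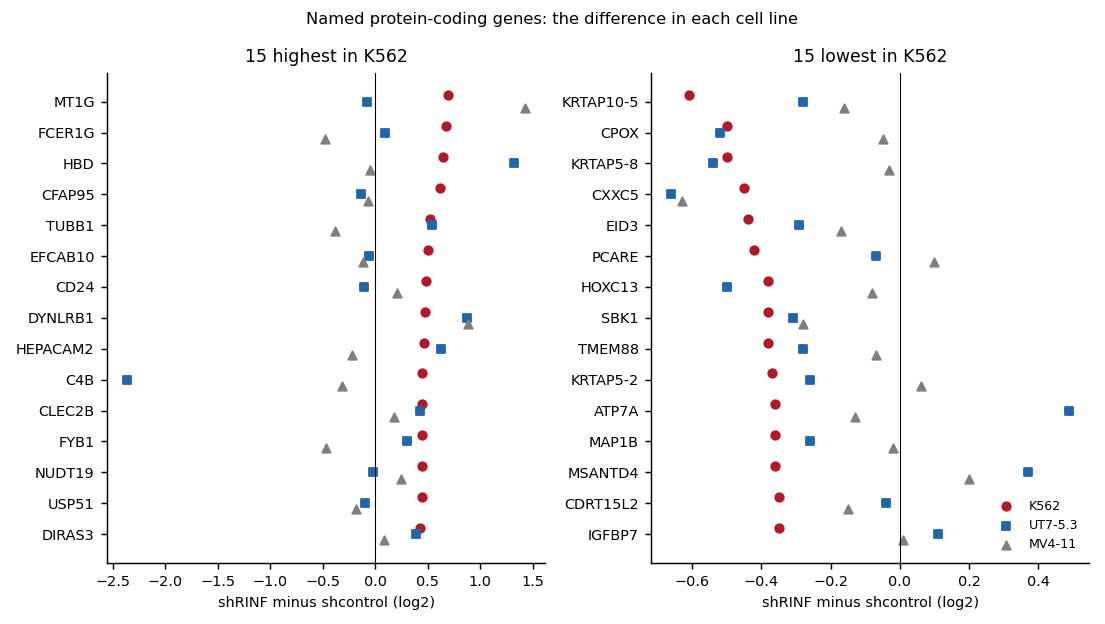
shRINF minus shcontrol (log2) in K562 (circles), UT7-5.3 (squares) and MV4-11 (triangles) for the 15 highest (left) and 15 lowest (right) protein-coding genes in K562. The panels differ in scale, the K562 values chose the genes, and CXXC5 and DYNLRB1 are past 0.3 the same way in all 3 lines.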

How the data were processed

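Total RNA of the K562 arrays, and of the UT7-5.3 and MV4-11 arrays set beside them, had been labelled for a whole-transcript array. Per the submitters' processing notes, the authors used Affymetrix Expression Console and its RMA method; the deposited table holds the resulting log2 values. Software versions, genome build and log base are stated in none of the labels, and base 2 was taken from the method and the range. RMA brings all arrays to a common distribution, so a shift shared by most genes would be removed. Arrays give no counts, and 1 array a side limits the precision.

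Gene symbols came from the platform annotation (23781 with 1 symbol, 1543 with several, 42204 with none listed, counting features), and RefSeq (GRCh38.p14) gave a gene type for 14322 of 14469 genes. Differences, ranks, counts and medians were computed with Python 3.11.15 and pandas 2.3.3, after a check of the code on simulated data. No p-value was computed. Named genes were CXXC5, the 15 highest and 15 lowest protein-coding genes, the 5 highest and 5 lowest of other types (all ties kept), up to 6 genes of each list by size, and all members of small lists. The members and lists were chosen with earlier results of these data known. Alternatives were other filters and fold minimums, median centring, quantile normalization, removal of a lowess trend on level, the mean of a gene's features, and protein-coding genes only.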

Additional observations from a re-analysis of the deposited data

Results flagged for a closer look

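Examined were CXXC5 and 56 other genes, named for their rank or as list genes past 0.3 in K562. Of these, 11 differed by 0.3 log2 or more one way in K562 and the other way in another line. Over all genes, 13.1% were higher and 9.66% lower by this much in UT7-5.3, and 3.71% and 2.63% in MV4-11. With 1 array for each line and vector the difference between lines was not tested, and no cause was tested. FCER1G differed by 0.67 in K562 and by -0.48 in MV4-11, TYROBP by 0.41 and -0.55, TUBB1 by 0.52 and -0.38, and FYB1 by 0.45 and -0.47. The K562 shcontrol value of FCER1G, 4.62, cannot be told from background, so its K562 difference is uncertain. The MV4-11 values of TUBB1, 4.72 with shRINF and 5.10 with shcontrol, cannot be told from background. C4B differed by 0.45 in K562, by -2.36 in UT7-5.3 and by -0.32 in MV4-11, at levels of 2.56 with shRINF and 4.92 with shcontrol in UT7-5.3. These values of C4B, those in MV4-11 (3.54 with shRINF, 3.86 with shcontrol) and its K562 shcontrol value of 4.65 cannot be told from background. ATP7A differed by -0.36 in K562 and 0.49 in UT7-5.3, and MSANTD4 by -0.36 and 0.37. LOC100131257 differed by -0.80 in K562 and 0.83 in UT7-5.3, but its values of 4.42 with shRINF and 3.59 with shcontrol in UT7-5.3, and of 4.21 with shRINF in K562, cannot be told from background. MIR548X differed by -0.57 in K562 and 0.63 in UT7-5.3, and MIR4659A by -0.51 and 0.77. MIR26B differed by -0.51 in K562 and 0.36 in MV4-11, at levels near 5 in both lines that cannot be told from background.

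Features that the comparison did not use also differed between the K562 arrays. Of 1113 kept features with several symbols 2.43% were higher and 0.359% lower with shRINF by 0.3 or more. Of 14180 with no symbol listed 4.01% were higher and 3.57% lower, against 0.968% and 0.7% of features with 1 symbol.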

How the results depend on the processing

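The difference of CXXC5 lay between -0.48 and -0.45 under all alternatives run. The 56 other genes, those named for their rank and the list genes past 0.3, kept their sign wherever an alternative kept the gene. That was 45 of them with log2 5 required on both arrays and 34 with a filter of 6. The filters and the restriction to protein-coding genes do not alter a gene's difference, apart from the feature read, so signs there were fixed in advance. Only median centring, quantile normalization, trend removal and the mean of features could change a gene's value. The counts of genes past the minimum moved with the filter and the minimum, in part by construction, since these change how many genes are counted. Against 139 higher and 103 lower, there were 282 and 219 with no filter, 165 lower with a filter of 4, 91 and 43 with a filter of 6, 76 and 33 among protein-coding genes, 476 and 377 at a minimum of 0.2, and 9 and 11 at 0.5. Median centring gave 127 and 120. The share of these genes that were higher was 57.4%, but 51.4% after median centring, 67.9% with a filter of 6, 69.7% among protein-coding genes and 45.0% at a minimum of 0.5. At 0.5 the share of higher K562 genes above 0 was 33.3% in UT7-5.3 and 11.1% in MV4-11, over 9 genes. Of 341 list medians under the alternatives 7 moved by more than the spread between lines, and 14, from 9 lists whose main median was at most 0.04 in size, changed sign, 6 of them after quantile normalization; the TGF-beta and BMP median was -0.03 with a filter of 6, and that of ribosome biogenesis -0.01 after quantile normalization. The number of lists with a median above 0 ranged from 20 to 27. No paired analysis was possible because the comparison lies within K562, with 1 array for each vector and no replicate numbers in the labels; the 3 lines form pairs only for a knockdown effect over the series, which was not analysed here. Without replicate arrays, differences of this size cannot be told apart from the variation between cultures or hybridisations.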

Other observations

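Zinc finger genes of the ZNF family, gathered after their values were seen, had a median of 0.06 in K562. Of 422 kept, 284 (67.3%) were above 0 and 123 (29.1%) below, beside 52.3% and 43.0% of all genes. By 0.3 or more 6 (1.42%) were higher and 0 lower, beside 0.961% and 0.712% of all genes. The family's median was 0.13 in UT7-5.3 and -0.01 in MV4-11. Olfactory receptor genes had 10 of 23 above 0 and 12 below.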
